A study of Mus musculus with 3 samples.

Results

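Activated fibroblasts build and remodel the extracellular matrix, and a small group of genes is widely used to mark them. The 8 genes described here, taken by symbol among the protein-coding genes of the deposited count table, are Cthrc1, Postn, Tnc, Cilp, Lrrc15, Tgfbi, Fap and Comp. They are 8 of 56748 genes listed, and all 8 had reads in every library. The choice was made with their values in these libraries known, so the levels and ratios below are a description with no test.

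The cells came from visceral adipose tissue of WT (wild-type) mice fed a high-fat diet and were isolated as fibroblasts from the stromal vascular fraction by magnetic removal of cells bearing CD45, CD31 or Ter119. One culture received recombinant mouse oncostatin M (Osm) at 3 ng/mL for 24 h, and another received recombinant human TGF-beta1 at 3 ng/mL for 24 h. A control culture titled as vehicle was the reference, with no time given. The fibroblasts were defined by what they lacked, and the labels give neither the number and age of the mice nor the time in culture. Each condition had 1 library, and no difference below has a replicate check. Osm belongs to the interleukin 6 cytokine family and acts through the receptor chain gp130 and Stat3. TGF-beta1 acts through Smad proteins and is a well-known inducer of matrix genes.

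The proteins differ in kind. Periostin (Postn) and the Tgfbi product are related adhesion proteins built from fasciclin domains. Tenascin-C (Tnc), Comp and Cilp are large secreted glycoproteins, and Cthrc1 is a small secreted glycoprotein with a short collagen-like stretch. Lrrc15 and Fap sit in the cell membrane, Lrrc15 as a leucine-rich repeat protein and Fap as a protease that cuts after proline, so they are surface markers and not matrix proteins. TGF-beta1 is known to raise Postn, Cthrc1 and Lrrc15 in fibroblasts, and Tgfbi takes its name from induction by TGF-beta in a human tumour cell line.

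The libraries held 17319872 counted reads with Osm, 18533741 with TGF-beta1 and 18336068 with vehicle. Levels are given as CPM, read counts scaled to library size, and the 95% intervals in parentheses are exact but hold counting error alone. The 9 fibroblast markers, Pdgfra, Pdgfrb, Dcn, Lum, Thy1, Dpt, Col1a1, Col1a2 and Col3a1, were present in every library and summed to 20126 CPM with Osm, 22694 CPM with TGF-beta1 and 19938 CPM with vehicle. With TGF-beta1 only Col1a1 and Col1a2 of the 9 were above vehicle, at 8039 against 4285 CPM and 5720 against 4302 CPM. The median log2 ratio of the 9 was -0.28, and Dcn was 2.41-fold lower (2.36 to 2.45). The 6 erythroid markers were at 0 in all 3 libraries, and the 6 adipocyte markers summed to at most 0.380 CPM. The 11 leukocyte markers summed to 21.3 CPM with Osm, 17.7 CPM with TGF-beta1 and 24.3 CPM with vehicle, with Cd3e, Cd52 and Itgam at 0 throughout. The 6 mural cell markers summed to 31.2, 20.2 and 29.4 CPM in the same order, none at 0. The 7 endothelial markers summed to 41.6, 36.6 and 51.4 CPM, nearly all Tek, with Cldn5 and Tie1 at 0 throughout. The 6 mesothelial markers summed to 40.4, 49.8 and 41.2 CPM, mostly Wt1. Of 5 mesothelial markers tested, 4 were above vehicle with TGF-beta1, with a median log2 ratio of 0.75. By the 2-fold rule given below 2 were higher, against 2.27% of all genes tested. These were Krt19, at 1.52 CPM with TGF-beta1 and 0.652 CPM with vehicle, and Upk1b, at 1.79 CPM and 0.870 CPM. Both reached 1 CPM with TGF-beta1 alone, and so entered through the library where they are high. Krt19 had 28 reads with TGF-beta1 and 12 with vehicle, and Upk1b had 33 and 16. Msln, the marker not tested, had 11 and 10. Of 4 leukocyte, 3 endothelial and 4 mural markers tested, 1 each was at least 2-fold lower with TGF-beta1 than with vehicle. The share over all genes tested was 4.79%. The 3 markers were Cd68, with 68 reads with TGF-beta1 and 164 with vehicle, Cdh5, with 9 and 22, and Abcc9, with 32 and 79. The 4 Schwann cell markers summed to at most 1.196 CPM. The part of such cells in the values below was not tested. In bulk RNA, more cells that express a gene and more RNA per cell cannot be told apart.

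The 8 genes did not move as one group. With TGF-beta1, Lrrc15, Cthrc1, Cilp, Tnc and Postn were higher than with vehicle by between 2.29-fold and 17.7-fold. Tgfbi was 2.32-fold lower and Fap 1.93-fold lower in the same library. Comp had at most 16 reads in any library. With Osm, none of the 8 differed 2-fold from vehicle beyond counting error, and Cilp moved furthest among the well-counted genes, 1.77-fold lower.

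To pass the 2-fold rule, a log2 ratio of CPM had to be 1 or more in size, and its exact 95% counting interval had to leave out equality. The rule was applied to the 13712 genes that reached 1 CPM in some library. By this rule 7 of the 8 genes entered, and Comp did not. Lrrc15 entered through the TGF-beta1 library alone, at 6.24 CPM there, 0.230 CPM with Osm and 0.326 CPM with vehicle. Its place among the 7 thus rests on the library where it is high. For TGF-beta1 over vehicle, 5 of the 7 were at least 2-fold higher, against 2.27% of all genes tested, and 1 was at least 2-fold lower, against 4.79%, which makes 6 in either direction, against 7.06%. For Osm over vehicle, 0 were higher, against 0.948% of all genes tested, and 0 lower, against 0.649%, or 1.6% in either direction. For Osm over TGF-beta1, 1 was higher, against 5.08%, and 5 were lower, against 2.42%, which makes 6 in either direction, against 7.5%. These percentages give the scale only, because the genes were chosen from these same comparisons, and each comparison shares a library with the other two.

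**Figure D1:**
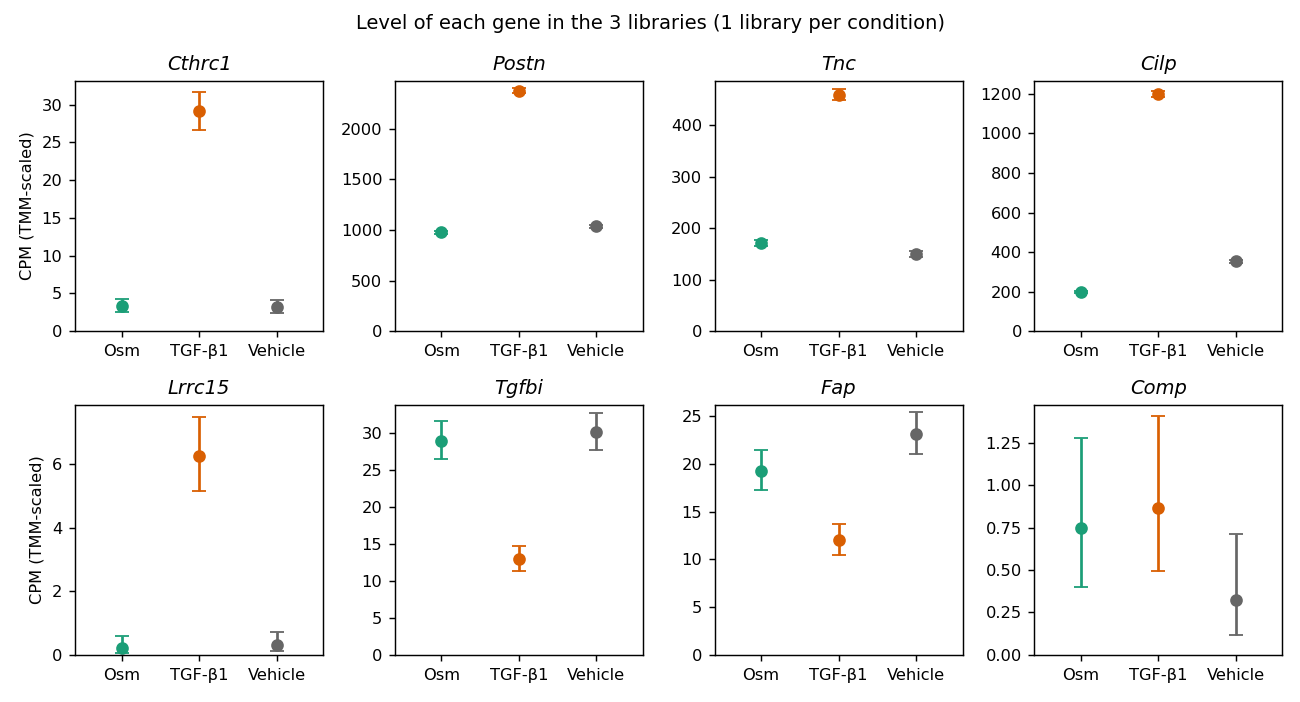
Level of each of the 8 genes in CPM (vertical axes, linear, each with its own range) in the Osm, TGF-beta1 and vehicle libraries, 1 library each. Points are the library values and bars are exact 95% Poisson intervals for counting error only. Cthrc1, Postn, Tnc, Cilp and Lrrc15 are highest with TGF-beta1, Tgfbi and Fap are lowest there, and the 3 intervals of Comp overlap.

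Lrrc15 showed the largest ratio of the 8. It marks fibroblasts that have met TGF-beta, also around human tumours (ENSMUSG00000052316, chromosome 16, 30088120 to 30102074, minus strand, build mm39). It had 4 reads with Osm, 115 with TGF-beta1 and 6 with vehicle, or 0.230 CPM, 6.24 CPM and 0.326 CPM. The gene was barely counted with Osm and vehicle, and low but well above the 3-read floor with TGF-beta1. It was 17.7-fold higher with TGF-beta1 than with vehicle (8.53 to 53.2), ranking 5 from the top among 12049 protein-coding genes tested. It was 24.3-fold lower with Osm than with TGF-beta1 (10.3 to 101.0). With Osm against vehicle the ratio was 0.730 (0.147 to 2.98), and no difference was detectable at this depth.

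Cthrc1 encodes a secreted protein first found in injured arteries and common in scar-forming fibroblasts (ENSMUSG00000054196, chromosome 15, 38940327 to 38950516, plus strand). Its level was 3.34 CPM with Osm (2.54 to 4.32), 29.1 CPM with TGF-beta1 (26.7 to 31.6) and 3.21 CPM with vehicle (2.44 to 4.14). The Osm and vehicle intervals overlap almost wholly, and the TGF-beta1 interval lies far above both. Cthrc1 was 9.0-fold higher with TGF-beta1 than with vehicle (6.92 to 12.1) and 8.64-fold lower with Osm than with TGF-beta1 (6.63 to 11.6). Osm over vehicle was 1.04 (0.713 to 1.52).

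Cilp encodes a matrix glycoprotein of cartilage that binds TGF-beta1 (ENSMUSG00000042254, chromosome 9, 65172462 to 65187887, plus strand). Its level was 199.0 CPM with Osm (192.4 to 205.7), 1198 CPM with TGF-beta1 (1182 to 1214) and 353.1 CPM with vehicle (344.5 to 361.8). No 2 of these intervals overlap. Cilp was 3.39-fold higher with TGF-beta1 than with vehicle (3.30 to 3.49), and 1.77-fold lower with Osm than with vehicle (1.70 to 1.85), short of the 2-fold rule. It was the member of the 8 on which the 2 ligands lay furthest apart after Lrrc15 and Cthrc1, 6.02-fold lower with Osm than with TGF-beta1 (5.81 to 6.24). Its ratio of Osm over vehicle ranked 11922 from the top of 12049 protein-coding genes, while its ratio of TGF-beta1 over vehicle ranked 79.

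Tnc encodes tenascin-C, an oligomeric protein of wounds and of embryonic connective tissue (ENSMUSG00000028364, chromosome 4, 63878022 to 63965252, minus strand). Its level was 171.4 CPM with Osm (165.3 to 177.6), 459.1 CPM with TGF-beta1 (449.4 to 469.0) and 149.3 CPM with vehicle (143.8 to 155.0). Tnc was 3.07-fold higher with TGF-beta1 than with vehicle (2.94 to 3.21) and 2.68-fold lower with Osm than with TGF-beta1 (2.57 to 2.79). It was also the only one of the 8 whose level with Osm lay above vehicle by more than counting error, 1.15-fold (1.09 to 1.21). The spread between cultures, against which a ratio of that size would be read, was not measured. The opposite strand of Tnc carries the long noncoding RNA 8030451A03Rik, at 0.230 CPM with Osm, 0.543 CPM with TGF-beta1 and 0.761 CPM with vehicle, too little to shift Tnc.

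Postn encodes periostin, which binds integrins and assists the crosslinking of collagen (ENSMUSG00000027750, chromosome 3, 54268530 to 54298458, plus strand). Its level was 976.9 CPM with Osm (962.3 to 991.7), 2375 CPM with TGF-beta1 (2353 to 2397) and 1035 CPM with vehicle (1020 to 1050). Postn was 2.29-fold higher with TGF-beta1 than with vehicle (2.26 to 2.33), the smallest ratio of the 5 genes past the rule. It was 1.06-fold lower with Osm than with vehicle (1.04 to 1.08) and 2.43-fold lower with Osm than with TGF-beta1 (2.39 to 2.47). The ratios of Cilp, Tnc and Postn are the most precise of the 8, since each rests on at least 2748 reads per library.

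Tgfbi encodes an adhesion protein with an integrin-binding RGD motif, and it went the other way from its relative Postn (ENSMUSG00000035493, chromosome 13, 56757336 to 56787375, plus strand). Its level was 29.0 CPM with Osm (26.5 to 31.6), 13.0 CPM with TGF-beta1 (11.4 to 14.7) and 30.2 CPM with vehicle (27.7 to 32.8). The TGF-beta1 library alone was low, and the Osm and vehicle intervals overlap. Tgfbi was 2.32-fold lower with TGF-beta1 than with vehicle (2.00 to 2.72), and 2.23-fold higher with Osm than with TGF-beta1 (1.91 to 2.62).

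Fap encodes fibroblast activation protein, a surface protease of stromal cells in wounds and tumours (ENSMUSG00000000392, chromosome 2, 62331287 to 62404419, minus strand). Its level was 19.3 CPM with Osm (17.3 to 21.5), 12.0 CPM with TGF-beta1 (10.46 to 13.7) and 23.2 CPM with vehicle (21.0 to 25.5). Fap was 1.93-fold lower with TGF-beta1 than with vehicle (1.64 to 2.28), just short of the 2-fold rule. Its interval spans 2-fold and overlaps that of Tgfbi (2.00 to 2.72), which passed the rule. Counting error thus does not separate Fap from Tgfbi here. With Osm it was 1.2-fold lower than with vehicle (1.04 to 1.39) and 1.61-fold higher than with TGF-beta1 (1.35 to 1.92).

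Comp encodes a pentameric thrombospondin of cartilage and tendon (ENSMUSG00000031849, chromosome 8, 70826208 to 70834716, plus strand). It had 13 reads with Osm, 16 with TGF-beta1 and 6 with vehicle, or 0.749 CPM, 0.868 CPM and 0.326 CPM. The ratio was 2.53 for TGF-beta1 over vehicle (0.989 to 8.31) and 2.20 for Osm over vehicle (0.815 to 7.37). Both intervals hold 1, so no difference in Comp was detectable at this depth. Among 6 cartilage and tendon markers, Acan was at 0 in every library, and the sums of 39.5 CPM with Osm, 29.6 CPM with TGF-beta1 and 37.9 CPM with vehicle were nearly all Sox9.

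**Figure D2:**
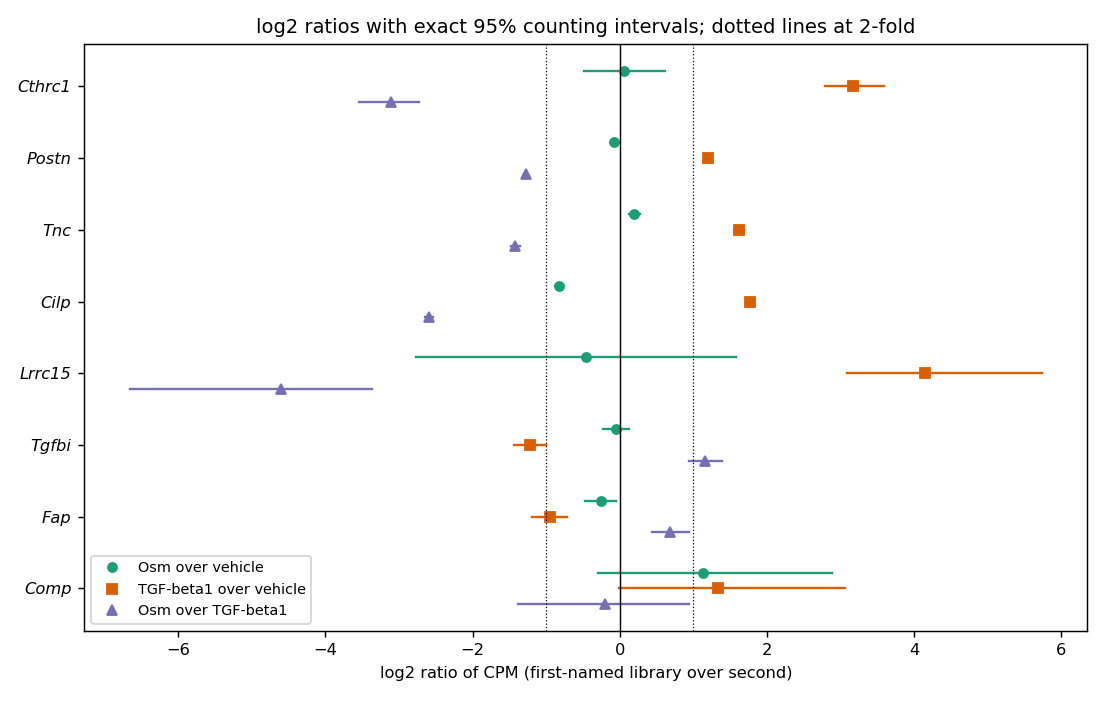
log2 ratios of CPM (horizontal axis) of the 8 genes for the 3 pairs of libraries. Lines are exact 95% intervals for counting error and dotted lines mark 2-fold. For TGF-beta1 over vehicle, 6 points lie right of the upper dotted line, of which that of Comp, at 1.34, has an interval that holds 0. Tgfbi lies left of the lower line, and Fap lies at -0.95, inside it.

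Levels of different genes were compared as the deposited FPKM, which divides by gene length. Postn stood first with Osm at 111.9 FPKM and with vehicle at 119.0 FPKM, and Cilp second at 46.6 FPKM with Osm and 83.1 FPKM with vehicle. With TGF-beta1 the order of the first pair was reversed, with Cilp at 282.2 FPKM (278.5 to 286.0) and Postn at 273.4 FPKM (270.9 to 276.0). Tnc followed them in all 3 libraries, at 22 FPKM with Osm, 59.2 FPKM with TGF-beta1 and 19.2 FPKM with vehicle. With Osm, Cthrc1 stood at 2.09 FPKM, below Tgfbi at 7.66 FPKM and Fap at 3.40 FPKM. With vehicle, Cthrc1 stood at 2.01 FPKM, below Tgfbi at 8.0 FPKM and Fap at 4.09 FPKM. With TGF-beta1, Cthrc1 stood at 18.3 FPKM, above Tgfbi at 3.44 FPKM and Fap at 2.12 FPKM. Lrrc15 was last with Osm and with vehicle, at 0.0433 and 0.0614 FPKM, and stood above Comp with TGF-beta1, at 1.18 against 0.293 FPKM. Neighbours in this order had separate counting intervals in every library, except Comp and Lrrc15 with vehicle. The order rests on 1 deposited length per gene, whatever isoforms the cells made. For Postn that length was 8702 bases, against 5223 in its longest transcript in an earlier annotation. For Cilp it was 4252 against 4153. A shorter length raises FPKM, so the reversal of Cilp and Postn with TGF-beta1 depends on the length used. The counting intervals do not cover this.

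Together the 8 genes took 0.140% of the counted reads with Osm, 0.407% with TGF-beta1 and 0.160% with vehicle. Their summed level was 1400 CPM with Osm, 4093 CPM with TGF-beta1 and 1595 CPM with vehicle, and Postn made up most of each sum. Without Postn the sums were 423.0, 1718 and 559.6 CPM. Without Postn and Cilp they were 224.0, 520.3 and 206.5 CPM, so the lower Osm sum rested on these 2 genes. In the TGF-beta1 library Cilp and Postn ranked 99 and 101 by FPKM of 12049 protein-coding genes tested, and with vehicle they ranked 506 and 318.

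**Figure D3:**
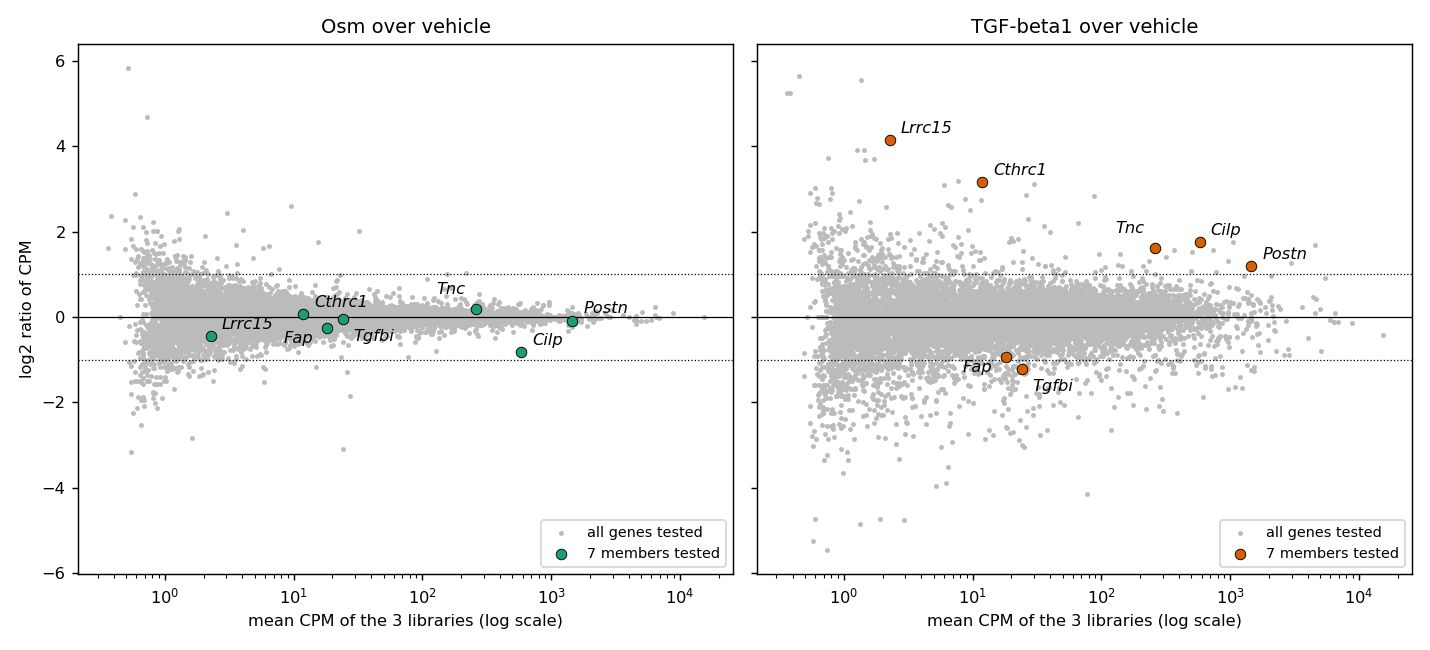
log2 ratio of CPM (vertical axis) against the mean CPM of the 3 libraries (horizontal axis, log scale) for the 13712 genes tested, in grey, and the 7 of the 8 genes among them, coloured and named. Dotted lines mark 2-fold. For Osm over vehicle the named genes lie between the dotted lines, and for TGF-beta1 over vehicle 5 lie above them and Tgfbi below.

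Promoter sequence was looked at because 4 of the genes higher with TGF-beta1 and 1 that was lower had windows in the RefSeq promoter table, build GRCm38.p6, which is an older build than the mm39 of the counts. The windows matched 5 of the 8 genes: Lrrc15 (chr16:30283255-30283504, minus strand), Cilp (chr9:65264930-65265179, plus strand), Tnc (chr4:64046937-64047186, minus strand), Postn (chr3:54360857-54361106, plus strand) and Tgfbi (chr13:56609336-56609585, plus strand). The 250 bases before each start are printed, 5′ to 3′ on the gene's strand. Tnc and Postn have 2 windows each, of which the one further downstream is shown. Capitals mark matches, on either strand, to the Smad element CAGAC, the AP-1 site TGANTCA, the TEAD site GGAATG, the Stat3 site TTCNNNGAA and the TATA letters TATAAA or TATATAA. The last of these contains no other searched motif, but overlaps TATAAA where an A follows, as in Postn. GTCTG in capitals is CAGAC on the other strand.
Lrrc15: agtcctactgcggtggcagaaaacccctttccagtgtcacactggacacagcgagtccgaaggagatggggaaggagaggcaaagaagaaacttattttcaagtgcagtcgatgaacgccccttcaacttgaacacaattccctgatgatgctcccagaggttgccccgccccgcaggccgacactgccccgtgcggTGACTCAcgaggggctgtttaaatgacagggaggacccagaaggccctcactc
Cilp: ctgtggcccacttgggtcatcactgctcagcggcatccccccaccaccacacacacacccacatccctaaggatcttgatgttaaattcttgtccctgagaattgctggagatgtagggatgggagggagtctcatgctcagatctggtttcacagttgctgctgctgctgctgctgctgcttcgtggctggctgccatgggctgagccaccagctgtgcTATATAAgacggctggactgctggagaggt
Tnc: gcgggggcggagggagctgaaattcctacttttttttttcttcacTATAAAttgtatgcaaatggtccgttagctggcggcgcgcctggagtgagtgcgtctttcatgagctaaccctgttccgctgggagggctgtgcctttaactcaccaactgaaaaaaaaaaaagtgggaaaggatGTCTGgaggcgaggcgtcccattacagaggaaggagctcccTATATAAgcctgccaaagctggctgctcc
Postn: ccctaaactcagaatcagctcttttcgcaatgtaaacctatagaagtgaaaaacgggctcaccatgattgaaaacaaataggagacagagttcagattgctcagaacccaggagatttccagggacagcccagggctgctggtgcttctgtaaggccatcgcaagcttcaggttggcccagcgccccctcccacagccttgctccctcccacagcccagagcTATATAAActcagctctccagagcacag
Tgfbi: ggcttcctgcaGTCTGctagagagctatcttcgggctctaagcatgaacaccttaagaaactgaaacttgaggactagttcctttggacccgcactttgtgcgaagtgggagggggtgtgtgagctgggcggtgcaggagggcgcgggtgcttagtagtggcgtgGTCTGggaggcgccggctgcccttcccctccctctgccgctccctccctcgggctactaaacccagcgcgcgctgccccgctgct

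In these windows the letters TATATAA began 28 bases before the start in Postn, 29 in Tnc and 30 in Cilp, and did not occur in Lrrc15 or Tgfbi. The other windows of Postn and Tnc did not hold TATATAA. Of all 32851 windows of this length, 3.04% hold TATATAA on either strand at any position. On the gene strand with its first base 25 to 35 bases before the start, 0.536% hold it. This motif was added after the windows had been read, so these shares give the scale only. CAGAC occurred 2 times in the window of Tgfbi, once in that of Tnc and not in the printed windows of Postn, Cilp and Lrrc15, against 42.2% of all windows. The other Postn window held it once. TGANTCA occurred in Lrrc15 alone, 53 bases before the start, against 6.75% of all windows. GGAATG and the Stat3 letters occurred in none of the 7 windows of these genes, against 12.6% and 7.02% of all windows. TATAAA occurred in the printed windows of Postn and Tnc, against 12.4% of all windows. The other Tnc window overlaps the printed one and holds the same TATAAA. A match is a description of the letters and not a binding site.

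By position, the 8 genes lie on 8 different chromosomes. The 16 nearest protein-coding genes tested were taken, 1 on each side of each gene. For TGF-beta1 over vehicle, 2 of them passed the 2-fold rule, against 7.06% of all genes tested. These were Fbxl21 and Pappa. Fbxl21, 71.6 kb from Tgfbi, was lower, at 0.597 CPM with TGF-beta1 and 1.41 CPM with vehicle. Pappa, as far as 1077 kb from Tnc, was higher, at 10.7 CPM and 5.33 CPM. Slc25a32, 4.11 kb from Cthrc1, was at 26.7 CPM with TGF-beta1 and 29.7 CPM with vehicle. Dpp4, which encodes the closest relative of the Fap protease and lies 88.7 kb from Fap, was at 44.4 CPM with Osm, 35.05 CPM with TGF-beta1 and 65.0 CPM with vehicle.

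Relatives of the 8 genes did not follow them as families. Tnxb, which encodes the abundant tenascin-X of loose connective tissue, was at 1592 CPM with Osm, 511.1 CPM with TGF-beta1 and 1630 CPM with vehicle. Tnxb was thus 3.19-fold lower with TGF-beta1 than with vehicle (3.12 to 3.26), while Tnc was higher. Of its 50-base windows, 6.74% also occur in another gene. Tnr and Tnn had at most 3 reads in any library.

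Among the thrombospondins, Thbs4 had a profile close to that of Lrrc15, with few reads in either gene. Thbs4 had 4 reads with Osm, 84 with TGF-beta1 and 6 with vehicle. It was at 0.230 CPM with Osm, 4.56 CPM with TGF-beta1 and 0.326 CPM with vehicle, 13.0-fold higher with TGF-beta1 than with vehicle (6.16 to 39.2). The platelet thrombospondin gene Thbs1 was at 1461 CPM with Osm, 2040 CPM with TGF-beta1 and 1569 CPM with vehicle. Thbs2 was at 3402, 1828 and 3378 CPM in the same order, 1.85-fold lower with TGF-beta1 than with vehicle (1.82 to 1.87). Thbs3 was 1.40-fold lower with TGF-beta1 (1.19 to 1.65), but it overlaps Mtx1 on the other strand, which was at 25.6 CPM with TGF-beta1 against 14.2 CPM for Thbs3. Of 4 tested genes of Comp's family, 1 was thus at least 2-fold higher with TGF-beta1 than with vehicle, against 2.27% of all genes tested. This gene, Thbs4, reached 1 CPM in the TGF-beta1 library alone, so it entered through the library where it is high.

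Of the other fasciclin-domain genes, Stab1 was at 1.79 CPM with Osm, 2.82 CPM with TGF-beta1 and 1.03 CPM with vehicle, 2.69-fold higher with TGF-beta1 than with vehicle (1.59 to 4.89). It overlaps Nt5dc2, at 42.2 CPM with TGF-beta1 and 33.6 CPM with vehicle, and its value is uncertain since the labels do not say whether counting used strand. Stab2 had at most 3 reads, as did Cilp2, the relative of Cilp. In the prolyl peptidase family, 0 of 5 tested relatives of Fap passed the rule in any comparison. Over all genes tested, the shares were 1.6% for Osm over vehicle, 7.06% for TGF-beta1 over vehicle and 7.5% for Osm over TGF-beta1. Dpp4 was 1.85-fold lower with TGF-beta1 than with vehicle (1.68 to 2.04) and the lysosomal Dpp7 1.78-fold lower (1.67 to 1.91), near the 1.93-fold of Fap. The cytosolic Dpp8 was 1.03-fold lower (0.982 to 1.08), Dpp9 1.09-fold higher (1.02 to 1.17) and Prep 1.41-fold higher (1.32 to 1.49). Dpp6 and Dpp10 had at most 1 read in any library.

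**Figure D4:**
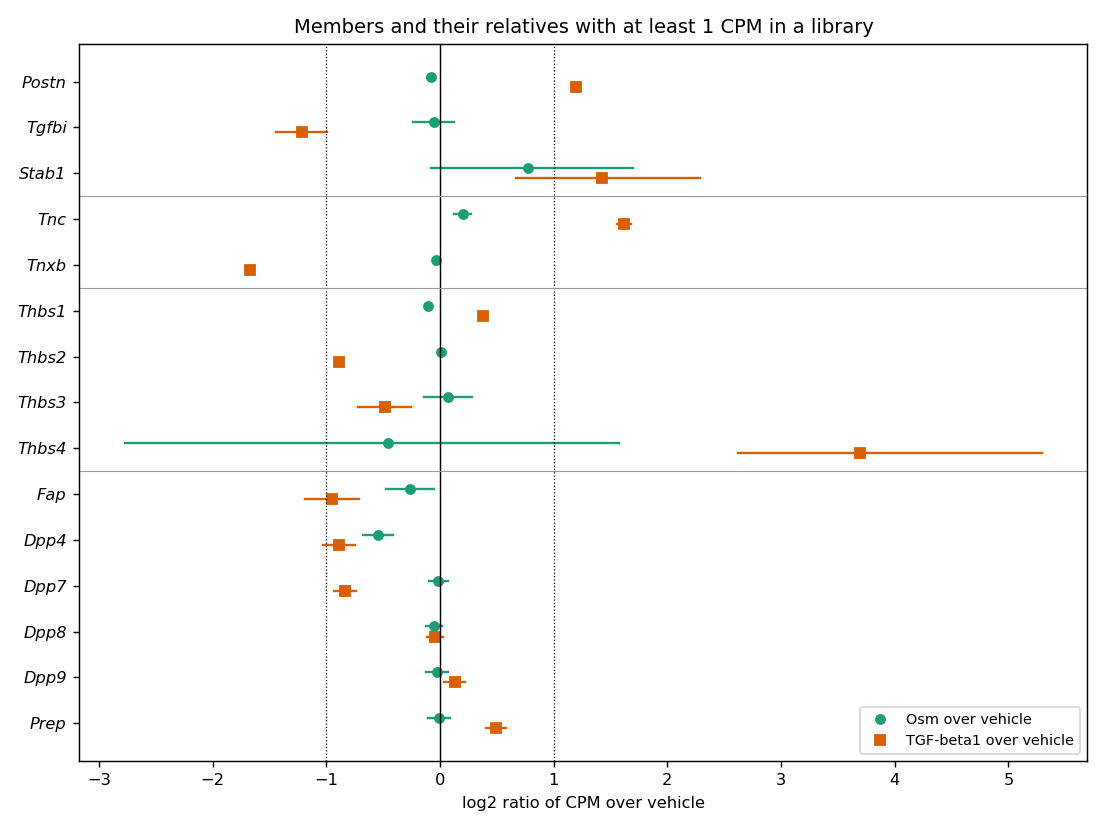
log2 ratios of CPM over vehicle (horizontal axis) for Osm and TGF-beta1, for members and their relatives with at least 1 CPM in a library, grouped from top to bottom as fasciclin-domain genes, tenascins, thrombospondins and prolyl peptidases. Lines are exact 95% counting intervals and dotted lines mark 2-fold. Within the top group Postn and Tgfbi lie on opposite sides, as do Tnc and Tnxb in the next, while Fap, Dpp4 and Dpp7 lie near one another on the left.

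A wider panel of 50 other genes used to mark activated fibroblasts had 47 tested. For TGF-beta1 over vehicle, 12 were at least 2-fold higher, against 2.27% of all genes tested, and 5 lower, against 4.79%. The median log2 ratio was 0.47, against 0.01 over all genes tested. Thbs4, described above, was among the 12. It reached 1 CPM in the TGF-beta1 library alone, so it entered through the library where it is high. Col8a2, a network-forming collagen chain, and Cspg4, the NG2 proteoglycan, were the highest at 5 CPM or more, 7.27-fold (6.18 to 8.63) and 8.75-fold (7.43 to 10.4). The lowest were Sfrp2, a secreted Wnt modulator, 6.25-fold lower (5.26 to 7.51; 13.3% of its windows are shared with another gene), and Spon2, 3.00-fold lower (2.55 to 3.57). Tgfbi and Fap were thus not alone among such markers in being lower with TGF-beta1.

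For Osm over vehicle, the median was -0.03 against 0 over all genes tested. Of the 47, 0 were higher, against 0.948% of all genes tested, and 2 lower, against 0.649%. The 2 were Col8a2, 2.44-fold lower (1.83 to 3.34), and Aspn, which encodes asporin, 2.25-fold lower (1.83 to 2.78). Col8a2 and Cilp share the direction of both ratios, lower with Osm and higher with TGF-beta1. This pair of directions was not particular to them. Postn and the panel genes Lox, Acta2 and Col12a1 had it too, with Osm ratios nearer to equality. The highest of the panel with Osm were Grem1, 1.34-fold (1.17 to 1.53), and Pdpn, 1.22-fold (1.19 to 1.25), both short of the rule. For Osm over TGF-beta1, 5 were higher, against 5.08% of all genes tested, and 15 lower, against 2.42%. The median was -0.55 against -0.01. Thbs4, which entered through the TGF-beta1 library alone, was among the 15.

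**Figure D5:**
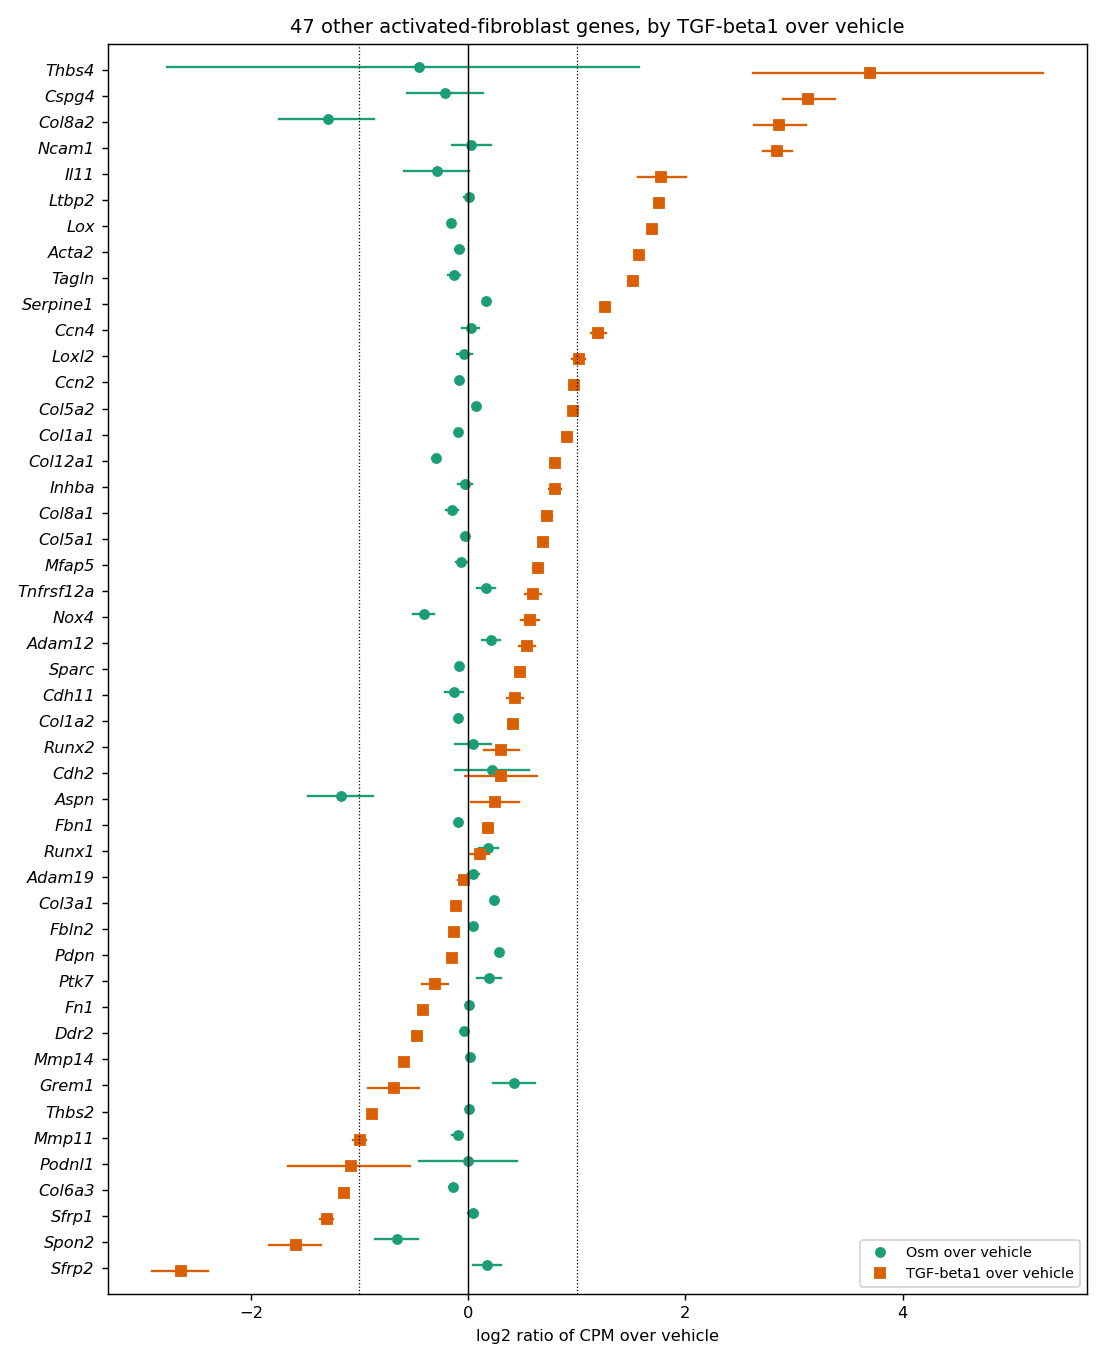
log2 ratios of CPM over vehicle (horizontal axis) for Osm and TGF-beta1 in the 47 other activated-fibroblast genes tested, ordered by TGF-beta1 over vehicle. Lines are exact 95% counting intervals and dotted lines mark 2-fold. With TGF-beta1, 12 genes pass the rule on the right and 5 on the left, and with Osm 2 pass it, both on the left. Thbs4, among the 12, was tested only through its level with TGF-beta1.

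Of 27 receptors and partners of the 8 proteins, 25 were tested. For TGF-beta1 over vehicle 3 were higher, against 2.27% of all genes tested, and 3 lower, against 4.79%. The median log2 ratio was 0.03 against 0.01 over all genes tested. Lox, the collagen crosslinking enzyme that Bmp1 activates, was at 8606 CPM with TGF-beta1 and 2667 CPM with vehicle, 3.23-fold higher (3.19 to 3.26). Fgf21, whose human hormone is a substrate of human FAP, was at 13.1 CPM with TGF-beta1 and 2.99 CPM with vehicle, 4.34-fold higher (3.25 to 5.98). Plau, the urokinase gene, was 4.61-fold lower (4.37 to 4.86) and Sdc4, a heparan sulfate proteoglycan, 2.04-fold lower (1.88 to 2.21). For Osm over vehicle 0 of 25 passed the rule in either direction, against 1.6% of all genes tested. Bmp1 was 1.24-fold higher with Osm (1.21 to 1.28) and Sdc4 1.23-fold higher (1.16 to 1.31), while Lox and Plau were both 1.12-fold lower (1.10 to 1.13 and 1.08 to 1.15). For Osm over TGF-beta1, 3 were higher, against 5.08% of all genes tested, and 3 lower, against 2.42%.

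The genes most like each of the 8 were found by the distance over 2 log2 ratios, those of Osm and of TGF-beta1 over vehicle, among 10309 protein-coding genes that reached 5 CPM in some library. With 3 libraries this describes a profile of 3 points and nothing more. Postn had Mgll, Gdf6 and Rab39b nearest, at distances of 0.011 to 0.090, and Tgfbi had Hlf, Pik3r5 and Hsd11b1, at 0.011 to 0.037. Of the windows of Rab39b, 16.1% occur in another gene. Fap had Ces2g, Podxl2 and Akr1c14, at 0.0071 to 0.030, and 15.3% of the windows of Podxl2 are shared. Tgfbi and Fap had 17 and 20 of the 10309 candidates within 0.1, against 4 for Postn. Tnc had Adm2, Wnt11 and Foxs1 nearest, at 0.101 to 0.111, and none within 0.1.

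Cilp, Cthrc1 and Lrrc15 had none within 0.1 among these candidates. The nearest to Cilp were Hbegf at 0.353, the metalloproteinase inhibitor gene Timp3 at 0.374 and Extl1 at 0.457. Timp3 was at 166.1 CPM with Osm, 701.6 CPM with TGF-beta1 and 235.6 CPM with vehicle, in the order shown by Cilp, although 36.3% of its windows also occur in other genes. The nearest to Cthrc1 were Cspg4 at 0.272, Ncam1 at 0.326 and Notch4 at 0.602. Lrrc15 had Cspg4 and Ncam1 nearest too, at 1.05 and 1.39, then Col8a2 at 1.53. Thbs4 was not a candidate, since it did not reach 5 CPM. Its log2 ratios, -0.45 for Osm and 3.70 for TGF-beta1 over vehicle, lie closer to the -0.45 and 4.15 of Lrrc15 than those of the 3 genes named. Both Osm ratios rest on 4 reads with Osm and 6 with vehicle, with the same log2 interval of -2.77 to 1.58. The TGF-beta1 intervals, 2.62 to 5.29 for Thbs4 and 3.09 to 5.73 for Lrrc15, overlap widely. The counts are thus too few to settle how close the 2 genes lie. Comp had no gene within 0.1, and its own ratios have wide intervals. Those of Cthrc1, -0.49 to 0.61 for Osm and 2.79 to 3.59 for TGF-beta1 over vehicle, are also wide beside its distances. For Cthrc1 and Lrrc15 the counts therefore do not settle which genes lie nearest.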

How the data were processed

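RNA sequencing of 3 mouse fibroblast libraries was analysed, 1 each with Osm, TGF-beta1 and vehicle, grouped by sample title. Polyadenylated RNA was, per the labels' protocols, captured, fragmented and copied with random primers, and the strand type of the libraries is not stated. CASAVA, TopHat2, HISAT and HISAT2 and the build mm39 appear in the submitters' processing notes. Both the read counter and the annotation release were not given in the sources used here. Whole-number read counts per gene and FPKM values are what the authors deposited. The deposited FPKM equal the count over gene length and over a library size scaled by DESeq2 size factors, within 0.0001 of its value for 100% of genes with at least 10 reads.

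Counts were scaled with the TMM factors of edgeR 4.0.16 (R 4.3.3), 1.00, 0.995 and 1.00 for Osm, TGF-beta1 and vehicle. Log2 ratios used a prior count of 0.5 scaled to library size, as edgeR does. Ratio intervals are exact conditional binomial (Clopper-Pearson) and level intervals exact Poisson. No molecular identifiers are described, so both cover counting error only. The 3 counts taken as the floor equal 0.163 to 0.173 CPM. With 1 library per condition, no p-value can be had for the conditions and none is printed. DESeq2 1.42.0 gave alternative size factors. Python 3.11.15, numpy 2.4.6, pandas 2.3.3, scipy 1.17.1 and matplotlib 3.10.9 did the rest. The code of the calls was checked on simulated counts with planted changes and Poisson counting error alone. These held no spread between cultures, so the check cannot speak to differences between cultures. Windows of 50 bases, 1 every 10, were looked up in GENCODE transcripts of an earlier build for sequence shared between genes. The 8 genes and all lists were chosen with earlier results of these data known. Named from the panel, the partners and the progenitor list were the 2 highest and 2 lowest ratios per comparison at 5 CPM or more in either library, with all relatives and the 3 nearest profiles of each gene, which are not reported here for Comp. Neighbours were named by position. Other genes were named after their values were seen.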

Additional observations from a re-analysis of the deposited data

How the results depend on the processing

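No paired analysis was possible because each condition had 1 library, and for the same reason no library could be left out. DESeq2 size factors, library totals, upper quartile factors, a prior count of 2, no filter, a 99% interval and protein-coding genes alone left the counts of the 8 genes past the rule as given. With a 1.5-fold rule, 1 of them was lower for Osm over vehicle (Cilp), 2 lower for TGF-beta1 over vehicle and 2 higher for Osm over TGF-beta1. A minimum of 10 CPM took out Lrrc15 and left 4 higher for TGF-beta1 over vehicle and 4 lower for Osm over TGF-beta1. With log2(FPKM + 1), 0 were higher for Osm over TGF-beta1, as Tgfbi came to 0.96, and Lrrc15 came to 1.04 for TGF-beta1 over vehicle, against 4.15, since the added 1 exceeds its level without TGF-beta1. No log2 ratio past the rule changed sign under any scaling.

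Over all genes, Osm over vehicle gave 130 higher and 89 lower. These became 18 and 9 with log2(FPKM + 1), 237 and 231 without a filter, 7 and 7 at 10 CPM, 288 and 228 at 1.5-fold, 80 and 55 at 99%, and 48 and 54 for protein-coding genes, while log2(FPKM + 0.1) gave 56 lower. TGF-beta1 over vehicle gave 311 and 657, or 83 and 206 with log2(FPKM + 1), 93 and 228 at 10 CPM and 823 and 1307 at 1.5-fold. Osm over TGF-beta1 gave 696 and 332, or 224 and 92, 226 and 107, and 1361 and 845 under the same 3 changes. Depth limits Comp and Lrrc15 most, with 6 reads each with vehicle.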

Other observations

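Genes of quiescent and progenitor fibroblasts, a list of 20 that were all tested, went both ways with TGF-beta1. Against vehicle 3 were at least 2-fold higher, against 2.27% of all genes tested, and 4 lower, against 4.79%. The median log2 ratio was -0.24. Pi16, a marker of fibroblasts shared by many tissues, was at 74.5 CPM with TGF-beta1 and 17.0 CPM with vehicle, 4.39-fold higher (3.89 to 4.99), in the direction of Postn. Has1, a hyaluronan synthase, was 2.70-fold higher (2.10 to 3.52). Clec3b, which encodes tetranectin, was 15.6-fold lower (8.89 to 33.2), resting on 11 reads with TGF-beta1 and 179 with vehicle. Ly6a, the Sca-1 surface antigen, was 3.80-fold lower (3.61 to 4.0), with 9.89% of its windows shared with other genes.

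With Osm against vehicle 0 of the 20 passed the rule in either direction, against 1.6% of all genes tested. The median was -0.18. Clec3b was 1.87-fold lower (1.45 to 2.44) and Limch1 1.85-fold lower (1.35 to 2.57), while Has1 was 1.35-fold higher (1.01 to 1.83) and Ackr3 1.27-fold higher (1.16 to 1.39). For Osm over TGF-beta1 2 were higher, Clec3b and Ly6a, against 5.08% of all genes tested, and 3 lower, against 2.42%. Among the lower were Pi16, 4.82-fold (4.23 to 5.52), and Efhd1, 2.22-fold (1.62 to 3.09), of whose windows 11.6% are shared.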
